A study of Mus musculus with 2 samples.

Results

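The genes examined here are 6 transcription factors of peripheral glia, *Sox10*, *Sox2*, *Pou3f1*, *Egr2*, *Foxd3* and *Zeb2*. They were taken by symbol, and each symbol stood on 1 row of the 32285 gene identifiers in the files. Their transcripts were counted in single cells of lumbar dorsal root ganglia (DRGs), which hold the cell bodies of sensory neurons with their glia, vessels, connective tissue and immune cells. L4 and L5 DRGs of uninjured female C57BL/6 mice of 3 months were dissociated, live cells were sorted, and their RNA was captured in droplets by the 10x Chromium 3' method, which gives each droplet a barcode and each transcript a unique molecular identifier (UMI). Replicates 1 and 2 are samples of this same condition, and the number of animals in each is not given. Comparisons were therefore made between cell types, each measured in both samples.

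Glia of peripheral nerves and ganglia descend from the neural crest. *Sox10*, an HMG-box factor, is required for them from that stage onwards, and *Foxd3*, a forkhead factor, marks the crest and its early glial progeny. *Sox2*, also an HMG-box factor, is typical of immature Schwann cells and holds back myelination. *Pou3f1* (Oct6), a POU factor, acts with *Sox10* to turn on *Egr2* (Krox20), the zinc finger factor that drives myelin genes. *Zeb2*, a zinc finger repressor that binds E-boxes, allows myelination by repressing inhibitors of it.

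On GRCm38, in the GENCODE M21 annotation, *Sox10* lies at chr15:79154908-79165240 on the minus strand and *Zeb2* at chr2:44983632-45117395 on the minus strand. *Sox2* (chr3:34650405-34652461), *Pou3f1* (chr4:124656807-124660655), *Foxd3* (chr4:99656299-99658622) and *Egr2* (chr10:67535475-67542188) lie on the plus strand. *Sox2*, *Pou3f1* and *Foxd3* consist of 1 exon each, and the principal transcripts of *Egr2*, *Sox10* and *Zeb2* have 2, 4 and 10 exons. *Sox2* lies within the gene of the non-coding RNA *Sox2ot* on the same strand, *Pou3f1* overlaps *Gm2164* on the opposite strand, and *Zeb2* overlaps *Zeb2os* on the opposite strand. UMIs at such overlaps depend on how the counting assigned them.

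RefSeq promoter windows on GRCm38.p6 were at hand for *Sox2*, *Egr2*, *Foxd3* and *Zeb2*. They are shown for *Egr2* and *Sox2*, the genes on either side of the myelination switch, as the 250 bases before the start site used for the window, 5' to 3', with the motifs found in capitals. The *Egr2* window is chr10:67537619-67537868 and the *Sox2* window chr3:34649745-34649994, both on the plus strand. Neither holds an exon of its gene in GENCODE. The *Egr2* window ends at the start of the principal transcript and lies in an intron of longer transcripts, and the *Sox2* window lies upstream of the annotated gene.
Egr2: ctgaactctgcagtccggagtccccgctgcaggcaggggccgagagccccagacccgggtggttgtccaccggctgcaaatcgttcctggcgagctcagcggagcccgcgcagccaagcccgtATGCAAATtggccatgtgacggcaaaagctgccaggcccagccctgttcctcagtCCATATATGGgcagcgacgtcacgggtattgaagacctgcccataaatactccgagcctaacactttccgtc
Sox2: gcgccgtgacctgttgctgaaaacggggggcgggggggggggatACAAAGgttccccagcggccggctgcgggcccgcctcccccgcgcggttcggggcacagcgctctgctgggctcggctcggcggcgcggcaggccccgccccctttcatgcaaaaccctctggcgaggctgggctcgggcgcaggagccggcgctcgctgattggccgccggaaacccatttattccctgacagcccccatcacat
Both strands were searched for 5 motifs, and no matches overlapped in these windows. In the *Egr2* window the capitals mark the POU octamer ATGCAAAT, 127 bases before the start, and a CArG box, the core of serum response elements, 72 bases before it. In the *Sox2* window they mark 1 copy of the SOX motif ACAAAG, 206 bases before the start. Of 32851 promoter windows, 1.60% held the octamer, 1.47% a CArG box and 16.5% the SOX motif. The ZEB E-box CACCTG (17.2% of windows) and the EGR motif GCGTGGGCG (0.536%) were in neither window. The 250 bases before the start of *Foxd3* (chr4:99656049-99656298) held none of the 5 motifs, nor did the *Zeb2* window at the start of the principal transcript. A match or its absence describes these letters only.

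The samples held 119101743 and 128668771 UMIs, of which 90.1% and 86.5% lay in called cells. After filters, 16788 cells in 20 clusters were kept, 8421 and 8367 per sample. Clusters were named from marker genes, with the 6 factors and the other genes described here that are not markers kept out of the clustering, so names such as SGC stand for SGC-like. Satellite glial cells (SGCs), which wrap neuronal cell bodies, made up 6179 cells (36.8%), myelinating Schwann cells 3260 (19.4%) and non-myelinating Schwann cells 1370 (8.16%). A single cluster of 2301 cells (13.7%) was high in *Ednrb*, the gene of endothelin receptor B, and is called Ednrb-high glia. Its summed UMIs held under 50 of *Fabp7* per 10000 and almost no *Ncmap* or *Scn7a*. These limits applied to the cluster and not to each cell. Its leading markers, *Ptprz1*, *Bcan* and *Kcnj10*, are those of SGCs, and it is named by these limits and not as a cell type. The same markers led an SGC cluster with 51.8 *Fabp7* UMIs per 10000. The other types were 1292 fibroblasts, 731 mural cells, 436 neurons, 418 endothelial cells and 365 macrophages, and 436 cells had no name. Neurons were shallow, with medians of 862 and 825 UMIs, and most deep neurons were removed by the upper cutoff on UMIs.

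The libraries shared cell barcodes. In all, 134 barcodes (1.52% and 1.53% of called cells) were called in both, and of the 74 kept in both, 65 (87.8%) were of the same type, against 20.9% if types were independent. These barcodes held 36.9% of neurons, with a median of 717 UMIs, and at most 0.548% of any other named type. Without them *Sox10* stood at 49.8 and 32.4 CPM in neurons, against 47.4 and 31.3 CPM with them, and 1 call on the factors was lost, which is given with *Sox2*. Levels are given as CPM, the summed UMIs of all cells of a type in a sample, scaled to a common library size with TMM normalization. Levels of different genes are not compared.

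The markers used for the names are given as a description, since the naming fixed them. *Fabp7* reached 12117 and 12303 CPM in SGCs and 3503 and 3238 CPM in Ednrb-high glia. *Scn7a* reached 1624 and 1896 CPM in non-myelinating Schwann cells and at most 7.04 CPM in SGCs and Ednrb-high glia. *Ncmap* reached 1564 and 1540 CPM in myelinating Schwann cells and at most 6.74 CPM in SGCs and Ednrb-high glia.

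To ask which factors set glia apart from the other cells of the DRG, the mean of the 4 glial types was compared with that of the 5 other types. All 6 factors were higher in glia. Of all 17381 genes tested, 29.7% were higher in glia and 23% lower. *Foxd3* differed most, by a log2 fold change of 3.59 ± 0.07 (SE), followed by *Pou3f1* (3.45 ± 0.16), *Sox10* (3.19 ± 0.07) and *Sox2* (3.09 ± 0.09). *Zeb2* (1.37 ± 0.05) and *Egr2* (1.21 ± 0.19) differed least. Adjusted p-values were at most 1.4e-05 (edgeR's quasi-likelihood test), and all 6 calls held in each of 16 alternatives with a test. The sizes moved more than the SE. Over these alternatives log2 fold changes lay between 3.44 and 6.00 for *Foxd3* and between 2.87 and 5.54 for *Pou3f1*. They lay between 3.05 and 5.22 for *Sox10* and between 2.98 and 5.83 for *Sox2*, so these ranges overlapped. For *Sox10*, *Sox2* and *Foxd3* the glial samples did not overlap with those of other types. *Sox10* lay between 224 and 360 CPM in glia and between 17.1 and 68.6 CPM elsewhere, *Sox2* between 144 and 251 CPM against 10.6 to 49.1 CPM, and *Foxd3* between 104 and 206 CPM against 3.38 to 30.5 CPM. The ranges of *Pou3f1*, *Egr2* and *Zeb2* overlapped with those of other types.

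**Figure D1:**
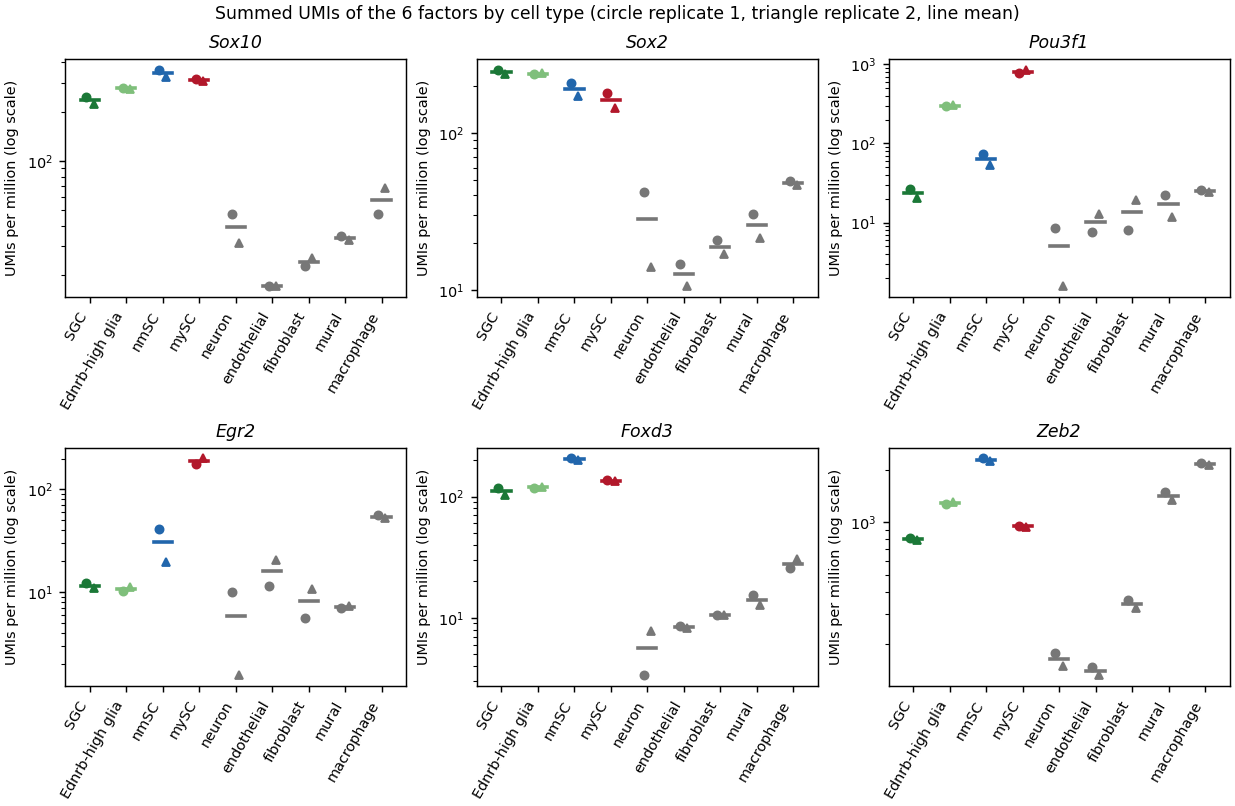
Levels of the 6 factors in 9 cell types, in CPM on a log scale (circle, replicate 1; triangle, replicate 2; line, mean; nmSC and mySC, non-myelinating and myelinating Schwann cells). *Pou3f1* spans 20.4 to 852 CPM and *Egr2* 10.4 to 200 CPM among glia, while *Sox10* spans 224 to 360 CPM, *Sox2* 144 to 251 CPM and *Foxd3* 104 to 206 CPM.

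Which factors differ between kinds of glia was then tested in the 6 pairs of the 4 glial types. Between SGCs and Ednrb-high glia, 2 of the 6 factors were lower in SGCs, *Pou3f1* and *Zeb2*, and none was higher (all genes tested, 8.66% lower and 14.6% higher in SGCs). Between SGCs and non-myelinating Schwann cells, 5 were lower and 1 was higher in SGCs (15% and 18.1% of genes). Between SGCs and myelinating Schwann cells, 4 were lower and 1 higher in SGCs (25.2% and 27.6%). Between Ednrb-high glia and non-myelinating Schwann cells, 4 were lower and 1 higher in Ednrb-high glia (11.6% and 10.2%). Between Ednrb-high glia and myelinating Schwann cells, 2 were lower and 2 higher in Ednrb-high glia (20.2% and 20%). Between non-myelinating and myelinating Schwann cells, 2 were lower and 2 higher in non-myelinating Schwann cells (17.9% and 19.3%). The median log2 fold change of the 6 factors was -1.13 for SGCs against non-myelinating Schwann cells, where that of all genes was 0.02. In the other pairs it lay between -0.54 and 0.19. All these comparisons share profiles and 1 fit, so their calls are not independent.

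**Figure D2:**
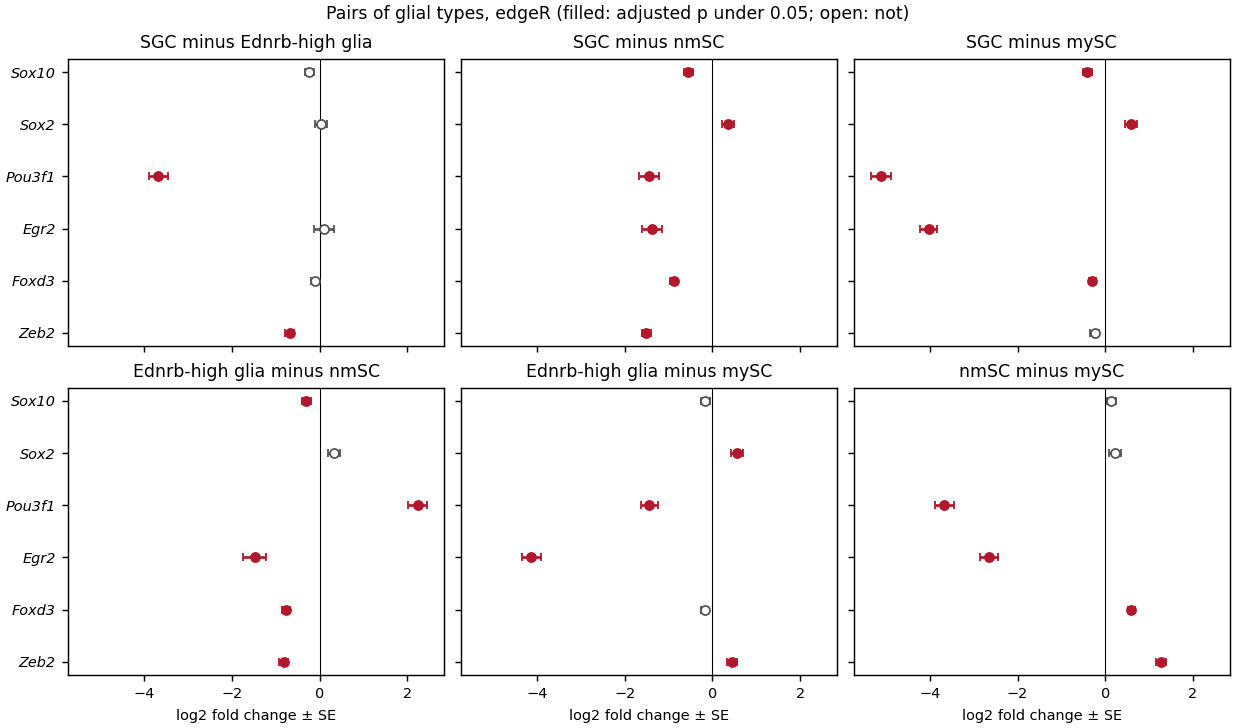
Log2 fold changes ± SE of the 6 factors in each pair of glial types (filled, adjusted p under 0.05 by edgeR's quasi-likelihood test; open, not). Farthest from 0 is *Pou3f1* in SGCs against myelinating Schwann cells (-5.12). Next are *Egr2* in Ednrb-high glia (-4.13) and SGCs (-4.03) against myelinating Schwann cells, and *Pou3f1* in SGCs against Ednrb-high glia (-3.68).

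*Sox10*, required throughout the glial lineage, differed little in level among glia. It stood at 360 and 327 CPM in non-myelinating Schwann cells, 316 and 306 CPM in myelinating Schwann cells, 278 and 277 CPM in Ednrb-high glia and 245 and 224 CPM in SGCs, in replicates 1 and 2. No neighbours in this order overlapped, and the highest mean was 1.46 times the lowest. SGCs were lower than non-myelinating Schwann cells by 0.55 on the log2 scale (SE 0.10, adjusted p = 0.00029) and lower than myelinating Schwann cells by 0.41 (SE 0.10, adjusted p = 0.0022, edgeR). The difference between Ednrb-high glia and non-myelinating Schwann cells passed narrowly (-0.31 ± 0.10, adjusted p = 0.041) and was lost in 8 of 16 alternatives. Over all 16, adjusted p-values lay between 0.0029 and 0.24. The same order held in single cells. After every cell was thinned to 2000 UMIs, a *Sox10* UMI was found in 53.5% (exact binomial 95% interval 49.5 to 57.4) and 52.3% (48.5 to 56.1) of non-myelinating Schwann cells, and in 35.1% (33.4 to 36.8) and 35.4% (33.7 to 37.1) of SGCs. In fibroblasts, which should lack it, the shares were 2.3% and 3.78%. Intervals cover counting error only. Without thinning, the shares were 88.6% and 85.6% in non-myelinating Schwann cells and 94.1% and 94.2% in SGCs, the opposite order, with medians of 5955 and 15863 UMIs per cell. Outside glia, macrophages had 47.3 and 68.6 CPM, neurons 47.4 and 31.3, mural cells 34.9 and 32.8, fibroblasts 22.9 and 25.5, and endothelial cells 17.1 and 17.3. Empty droplets held 255 and 222 CPM, and made up an estimated 2.81% to 7.83% of the UMIs in the profiles of these types. The part of this RNA in the levels outside glia was not tested.

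*Foxd3*, the crest and early glial factor, was highest in non-myelinating Schwann cells. They had 206 and 202 CPM, followed by myelinating Schwann cells with 137 and 133, Ednrb-high glia with 119 and 121, and SGCs with 117 and 104. No neighbours in this order overlapped. Non-myelinating Schwann cells exceeded SGCs by 0.89 on the log2 scale (SE 0.08, adjusted p = 4.1e-08), Ednrb-high glia by 0.77 (SE 0.08, adjusted p = 7.0e-07) and myelinating Schwann cells by 0.59 (SE 0.09, adjusted p = 9.8e-06, edgeR). All 3 calls held in each of 16 alternatives. Per cell, thinned shares were 31.4% and 32.5% in non-myelinating Schwann cells and 17.4% to 22.2% in the other glia, against 1.54% and 1.4% in fibroblasts. Of the 3 genes with a pattern most like that of *Foxd3*, *Gm12688*, a long non-coding RNA gene 1316 bases from it on the opposite strand, had a Pearson correlation of 0.989. This is a description over 18 profiles of log2(CPM + 1), and these share libraries and the contrast of glia with other cells. The next were *Adamts20* (0.971) and *Rab38* (0.968).

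*Sox2*, the factor of immature Schwann cells, was highest in SGCs and Ednrb-high glia. It stood at 251 and 235 CPM in SGCs and 237 and 239 CPM in Ednrb-high glia, which overlapped. Non-myelinating Schwann cells had 207 and 173 CPM and myelinating Schwann cells 178 and 144 CPM, which overlapped as well. Levels in SGCs exceeded those in myelinating Schwann cells by 0.59 on the log2 scale (SE 0.13, adjusted p = 0.00076), and so did those in Ednrb-high glia, by 0.56 (SE 0.13, adjusted p = 0.0020, edgeR). The difference between SGCs and non-myelinating Schwann cells was at the threshold (0.36 ± 0.14, adjusted p = 0.046). It was lost in 9 of 16 alternatives, among them the one without the shared barcodes (adjusted p = 0.064). Over all 16, adjusted p-values lay between 0.0021 and 0.15. Between Ednrb-high glia and non-myelinating Schwann cells the log2 difference was 0.33 ± 0.14 with an adjusted p = 0.099, and with the replicate as a block it passed (adjusted p = 0.030). The 2 clusters of myelinating Schwann cells differed in *Sox2*. The larger one had 221 and 166 CPM and the smaller one 64.7 and 64, where CPM of clusters are scaled to the cluster's total without TMM. Thinned shares were 23.2% and 20% in myelinating Schwann cells and between 27.9% and 36.7% in the other glia, against 2.5% and 1.82% in fibroblasts.

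*Pou3f1*, the factor of the promyelinating stage, separated the glial types most widely. Myelinating Schwann cells had 773 and 852 CPM and Ednrb-high glia 297 and 304 CPM. Non-myelinating Schwann cells followed with 74.4 and 54 CPM and SGCs with 26.4 and 20.4 CPM. The 4 glial types did not overlap, and the highest mean was 34.7 times the lowest. SGCs overlapped with macrophages, which had 26 and 24.5 CPM, and with mural cells, which had 22.1 and 11.8 CPM. The log2 fold change between SGCs and Ednrb-high glia was -3.68 ± 0.21 (adjusted p = 1.3e-10), and that between Ednrb-high glia and myelinating Schwann cells was -1.44 ± 0.19 (adjusted p = 3.2e-06, edgeR). Ednrb-high glia exceeded non-myelinating Schwann cells by 2.23 ± 0.22 (adjusted p = 1.2e-07). All 6 pairs were called, and each call held in 16 of 16 alternatives. Thinned to 2000 UMIs, 30.7% (28.1 to 33.3) and 32.8% (30 to 35.7) of Ednrb-high glia had a *Pou3f1* UMI, against 66.1% (63.7 to 68.4) and 67.7% (65.4 to 70) of myelinating Schwann cells and 4.16% (3.48 to 4.92) and 3.42% (2.80 to 4.12) of SGCs. In fibroblasts, the shares were 0.96% (0.312 to 2.23) and 3.22% (2.05 to 4.79), so the share in SGCs was above this background in replicate 1 and within it in replicate 2. Without thinning, 56.4% and 58.7% of Ednrb-high glia and 12.6% and 11.9% of SGCs had a UMI.

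**Figure D3:**
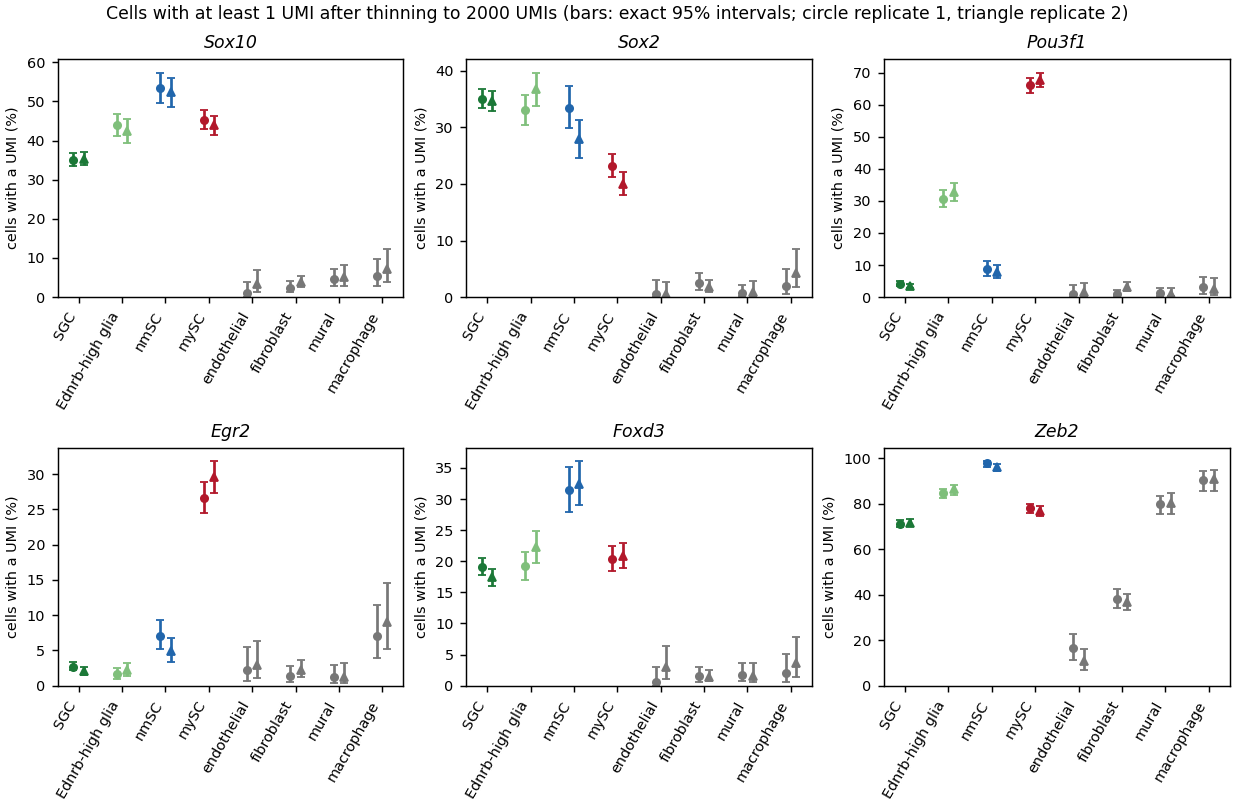
Percent of cells with at least 1 UMI of each factor after thinning to 2000 UMIs, by type (circle, replicate 1; triangle, replicate 2; bars, exact binomial 95% intervals; neurons are left out because 383 of 436 were shallower). *Pou3f1* was found in 30.7% and 32.8% of Ednrb-high glia, between the shares of SGCs and myelinating Schwann cells.

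*Egr2*, the driver of myelin genes, was highest in myelinating Schwann cells. They had 178 and 200 CPM. Non-myelinating Schwann cells had 41.3 and 19.9 CPM, SGCs 12.2 and 11 CPM, and Ednrb-high glia 10.4 and 11.2 CPM. Macrophages, with 56.2 and 52.2 CPM, exceeded all glia except myelinating Schwann cells, and endothelial cells had 11.5 and 20.4 CPM. *Egr2* is also known as an immediate early gene. SGCs and Ednrb-high glia fell below myelinating Schwann cells by log2 differences of -4.03 ± 0.19 (adjusted p = 5.0e-13) and -4.13 ± 0.22 (adjusted p = 3.4e-12, edgeR). They did not pass the test against each other (0.10 ± 0.23, adjusted p = 0.80), but *Egr2* was lower in SGCs, and called, in 4 alternatives that moved the border between them (log2 -0.58 to -0.95, adjusted p between 0.0019 and 0.031). Among these was the setting in which the factors themselves could enter the clustering, so its call is not independent of the clusters. The sign also turned, without a call, at a resolution of 1.2 (-0.29), without the SGC cluster next to the limit (-0.36) and without replicate 1 (-0.07). The samples were far apart in non-myelinating Schwann cells. Their difference from SGCs (-1.38 ± 0.24 for SGCs minus non-myelinating Schwann cells, adjusted p = 0.00010) was -0.89 without replicate 1 and -1.80 without replicate 2. Their difference from Ednrb-high glia (-1.48 ± 0.26) was -0.83 and -1.99, and was lost when cells were gated singly (-0.41, adjusted p = 0.36). Their difference from myelinating Schwann cells (-2.65 ± 0.21) was -3.32 and -2.07. *Egr1*, an immediate early gene of the same family, stood at 594 and 389 CPM in the same profiles of non-myelinating Schwann cells, also lower in replicate 2. In SGCs and in Ednrb-high glia *Egr1* was higher in replicate 2, and a relation of *Egr1* to the gap in *Egr2* was not tested. Thinned shares of *Egr2* were 26.6% (24.5 to 28.9) and 29.5% (27.3 to 31.8) in myelinating Schwann cells. They were 2.71% and 2.05% in SGCs and 1.61% and 2.19% in Ednrb-high glia, with intervals that overlapped those of the 1.34% and 2.24% of fibroblasts in the same replicate. Without thinning, shares in replicates 1 and 2 were 12.5% (11.4 to 13.7) and 12.2% (11.1 to 13.4) in SGCs and 5.07% (3.36 to 7.28) and 9.49% (7.5 to 11.8) in fibroblasts, with intervals that lay apart in replicate 1 and overlapped in replicate 2. Empty droplets held 44.1 and 37.9 CPM of *Egr2*, and their RNA made up an estimated 2.36% or less of the UMIs of SGCs and of Ednrb-high glia.

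In Ednrb-high glia, *Pou3f1* stood between SGCs and myelinating Schwann cells, while for *Egr2* the comparison with SGCs depended on the border between them. Within myelinating Schwann cells, cells with and without a *Pou3f1* UMI had similar shares with an *Egr2* UMI. The share was 26.9% of 1050 cells with *Pou3f1* against 26.2% of the others in replicate 1, and 29.5% of 1091 cells against 29.6% in replicate 2. Both UMIs were found in 17.7% and 20% of myelinating Schwann cells, where independence of the 2 genes would give 17.6% and 20%. An *Egr2* UMI was found in 29.3% of myelinating Schwann cells with *Sox2* and in 25.8% of those without in replicate 1, and in 29.4% and 29.6% in replicate 2. In Ednrb-high glia, *Pou3f1* was found in 34.9% and 37.4% of the cells with a *Sox10* UMI and in 27.4% and 29.4% of those without. The direction was the same in SGCs, with 6.52% and 4.14% against 2.88% and 3.02%. In non-myelinating Schwann cells the shares were 10.9% and 8.52% against 6.42% and 6.93%, and in myelinating Schwann cells 66.3% and 69.1% against 65.9% and 66.7%. At 2000 UMIs a cell that expresses a gene often shows none of its UMIs, so a share without a UMI does not show that the gene was off.

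*Zeb2*, the E-box repressor, was higher in macrophages and mural cells than in 3 of the 4 glial types. Non-myelinating Schwann cells had 2325 and 2236 CPM, macrophages 2204 and 2140, mural cells 1490.5 and 1338, Ednrb-high glia 1278 and 1302, myelinating Schwann cells 952 and 945, SGCs 817 and 789, fibroblasts 359 and 322, neurons 179 and 150, and endothelial cells 147 and 134. No neighbours in this order overlapped. *Zeb2* is also known for its part in macrophage identity. SGCs were lower than Ednrb-high glia by 0.68 on the log2 scale (SE 0.11, adjusted p = 9.0e-05) and lower than non-myelinating Schwann cells by 1.51 (SE 0.11, adjusted p = 1.3e-09, edgeR). Ednrb-high glia exceeded myelinating Schwann cells by 0.44 ± 0.11 (adjusted p = 0.0025), and non-myelinating exceeded myelinating Schwann cells by 1.27 ± 0.11 (adjusted p = 9.6e-09). Between SGCs and myelinating Schwann cells the difference was -0.24 ± 0.11 (adjusted p = 0.071) and passed in 9 of 16 alternatives, the replicate block among them (adjusted p = 0.032). Thinned shares were 97.6% and 96.1% in non-myelinating Schwann cells, 84.7% and 86.2% in Ednrb-high glia, 77.9% and 76.8% in myelinating Schwann cells and 71.1% and 71.7% in SGCs. They were 90.5% and 90.9% in macrophages and 16.4% and 10.9% in endothelial cells. Among the 2 clusters of mural cells, the smaller one of 52 cells had 2791 and 2353 CPM and the larger one 1362 and 1248.

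The glial types were not uniform in these factors. Of the 4 SGC clusters, 1 lay at the *Fabp7* limit, with 51.8 UMIs per 10000 over both samples, and with 4834 and 5510 CPM of *Fabp7* in replicates 1 and 2, where the limit was applied to both together, and the other 3 had 9295 to 14393. The Ednrb-high cluster, with 34.6 *Fabp7* UMIs per 10000 over both samples, had 3560 and 3352 CPM. *Pou3f1* was 114 and 81.9 CPM in the SGC cluster next to the limit and 2.59 to 23.3 in the other 3, *Egr2* 31.2 and 23 against 6.39 to 9.54, *Zeb2* 1139 and 1206 against 538 to 764, and *Sox10* 295 and 283 against 176 to 232. The level of *Egr2* in this SGC cluster was above that of the Ednrb-high cluster (10.5 and 11.6), while that of *Pou3f1* was below it (301 and 314). With this cluster left out of SGCs, *Sox10* and *Foxd3* were also lower in SGCs than in Ednrb-high glia, with log2 fold changes of -0.35 (adjusted p = 0.014) and -0.22 (adjusted p = 0.048, edgeR), and 4 factors were called instead of 2.

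**Figure D4:**
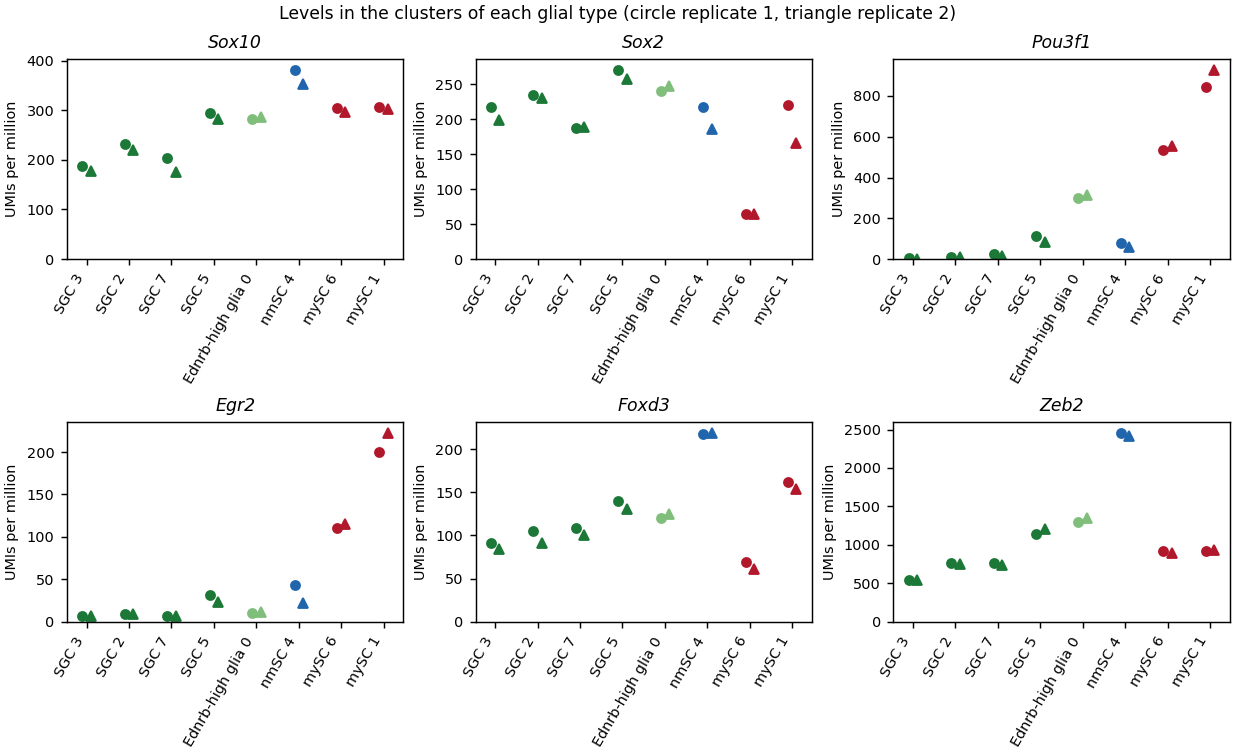
Levels in each cluster of the 4 glial types, in CPM of the cluster without TMM (circle, replicate 1; triangle, replicate 2), with clusters of a type ordered by falling *Fabp7*. SGC cluster 5 is the one next to the *Fabp7* limit, and among myelinating Schwann cells cluster 6 is lower than cluster 1 in *Sox2*, *Foxd3*, *Egr2* and *Pou3f1*.

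Across single cells of the SGC and Ednrb-high clusters, *Pou3f1* was lower where *Fabp7* was higher. Cells with under 25 *Fabp7* UMIs per 10000 had 430 and 413 CPM of *Pou3f1* in replicates 1 and 2, cells with 25 to 50 had 99.5 and 97.6, and cells with 150 or more had 4.04 and 2.99. *Zeb2* ranged from 1367 and 1440 CPM down to 628 and 585 CPM over the same bins, and *Sox10* from 308 and 299 to 193 and 189. *Sox2* ranged from 243 and 245 to 211 and 191. *Egr2* was 18.4 and 15.3 in the lowest bin and 7.62 and 8.24 in the highest. The median depth rose along with *Fabp7*, from 9936 and 10327 UMIs per cell to 17292 and 18448, and the part of depth in these values was not tested. The *Fabp7* limit applied to whole clusters, so both types lay on either side of it. SGCs made up 32.7% and 26.7% of the cells under 25 in replicates 1 and 2. They were 48.9% and 52.1% of cells with 25 to 50, and 69.7% and 76% of cells with 50 to 75. The other cells were Ednrb-high glia. All these cells were placed in clusters partly by *Fabp7*, so this is a description without a test.

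**Figure D5:**
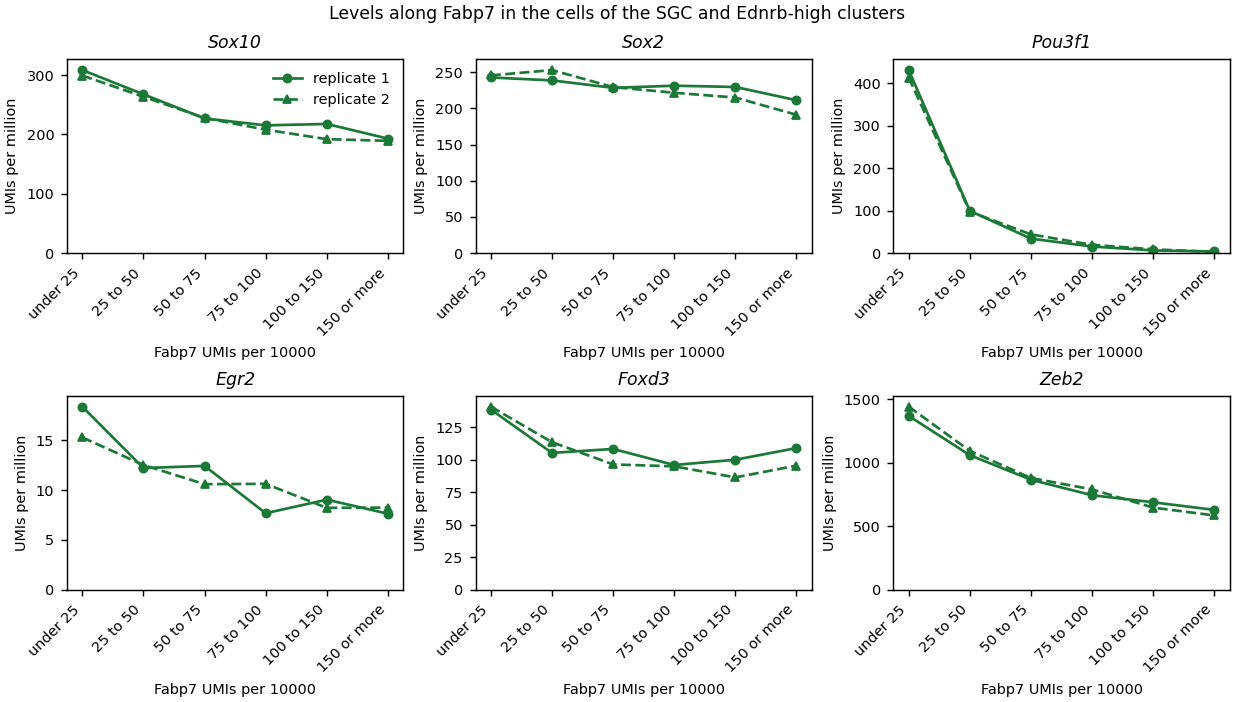
Levels of the 6 factors, in CPM without TMM, in the cells of the SGC and Ednrb-high clusters grouped by *Fabp7* UMIs per 10000 (solid line and circles, replicate 1; dashed line and triangles, replicate 2). *Pou3f1* goes from 430 and 413 to 4.04 and 2.99, and *Sox2* from 243 and 245 to 211 and 191.

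Myelinating Schwann cells fell into 2 clusters that differed in 4 of the factors in both samples. The larger one had 200 and 223 CPM of *Egr2* against 110 and 115 in the smaller one, 846 and 925 of *Pou3f1* against 534 and 553, and 161 and 153 of *Foxd3* against 68.9 and 60.9. *Sox10* was 307 and 302 against 305 and 296, and *Zeb2* 925 and 936 against 916 and 900. The smaller cluster had fewer UMIs per cell (median 4269 against 5898) and a higher mean mitochondrial share (11.9% against 8.36%), and their part in these values was not tested.

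The other genes of these programs were counted from 4 lists, to be read against the shares of all genes called. Of all genes, 14.6% were called higher and 8.66% lower for SGCs against Ednrb-high glia, 18.1% and 15% for SGCs against non-myelinating and 27.6% and 25.2% against myelinating Schwann cells, 10.2% and 11.6% for Ednrb-high glia against non-myelinating and 20% and 20.2% against myelinating Schwann cells, 19.3% and 17.9% for non-myelinating against myelinating Schwann cells, and 29.7% and 23% for glia against other types. The median log2 fold change of all genes lay between -0.02 and 0.05 in these comparisons. Of 10 myelin and glial genes that *Sox10* or *Egr2* are known to activate, 6 of which had served as markers to name myelinating Schwann cells, 10 were higher in glia than in other types. *Erbb3*, the neuregulin co-receptor, which was not a marker, had a log2 fold change of 3.23 ± 0.09, and the connexin gene *Gjc3* 3.60 ± 0.07. Ednrb-high glia were higher than SGCs in 6 of the 10 and lower in none, among them *Prx* (41.2 and 48.5 CPM against 11.5 and 11.6) and *Gjb1*, the connexin of myelinating Schwann cells (13 and 11.9 CPM against 4.21 and 3.16). Myelinating Schwann cells exceeded Ednrb-high glia in 8 and were lower in 1, with *Gjb1* at 76.4 and 86.1 CPM. The median log2 fold change of the list was -0.76 for SGCs against Ednrb-high glia and -3.40 for Ednrb-high glia against myelinating Schwann cells. SGCs were lower than myelinating Schwann cells in 8 and higher in none. Against non-myelinating Schwann cells, SGCs were lower in 8 and higher in 2, and Ednrb-high glia lower in 4 and higher in 3. Non-myelinating were lower than myelinating Schwann cells in 9 and higher in 1.

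Of 9 inhibitors of Schwann cell myelination, 5 were higher in SGCs than in Ednrb-high glia and none was lower (all genes, 14.6% and 8.66%), with a median log2 fold change of 0.51. The Notch target *Hes5* stood at 93.4 and 187 CPM in SGCs and at 2.13 and 7.43 CPM in Ednrb-high glia (log2 fold change 4.91 ± 0.47, adjusted p = 1.7e-07, edgeR). It was higher in replicate 2 than in replicate 1 in each of the 9 types, and stood among the leading genes of 2 of the 4 SGC clusters. *Hey2* (294 and 298 against 180 and 180 CPM) and *Id4* (277 and 304 against 166 and 168 CPM) were higher by 0.71 and 0.80 on the log2 scale. Against both kinds of Schwann cells, 7 of the 9 were higher in SGCs and 2 lower (all genes, 18.1% and 15% against non-myelinating, 27.6% and 25.2% against myelinating). Ednrb-high glia were higher than myelinating Schwann cells in 5 and lower in 2, *Hes1* and *Jun* (all genes, 20% and 20.2%). The same counts held against non-myelinating Schwann cells (10.2% and 11.6%). Between the 2 kinds of Schwann cells, 3 were higher in the non-myelinating ones and 1 lower (19.3% and 17.9%). Against other types, glia were higher in 4 and lower in none (29.7% and 23%).

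Among 16 partners and cofactors of the myelination factors, SGCs exceeded Ednrb-high glia in 2 and fell below them in 2 (all genes, 14.6% and 8.66%), shares near those of all genes, with a median log2 fold change of -0.05. *Egr3* was higher in Ednrb-high glia (119 and 134 CPM) than in SGCs (64.2 and 63.3 CPM), and *Egr1* was lower (151 and 216 against 367 and 388 CPM). *Nab1*, a corepressor that binds Egr proteins, was higher in SGCs by 0.87 ± 0.10. Against non-myelinating and myelinating Schwann cells, SGCs were higher in 6 and 7 (all genes, 18.1% and 27.6%) and lower in 4 and 5 (15% and 25.2%). Ednrb-high glia were higher in 6 and 5 (10.2% and 20%) and lower in 3 and 5 (11.6% and 20.2%). Non-myelinating Schwann cells were higher than myelinating ones in 2 and lower in 5 (19.3% and 17.9%), with *Nab2* lower by 1.11 on the log2 scale. Glia exceeded other types in 9 and were lower in 4 (all genes, 29.7% and 23%), the latter near the share of all genes. *Pou3f2*, a close relative of *Pou3f1*, was higher in glia by 3.02 ± 0.09. It did not share the steep order of *Pou3f1*, with 126 and 129 CPM in SGCs, 153 and 161 in Ednrb-high glia, 84.9 and 79 in non-myelinating and 105 and 83.5 in myelinating Schwann cells.

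Of 17 neural crest and glial lineage factors, 15 had enough UMIs to be tested. SGCs were higher than Ednrb-high glia in 1 and lower in 4 (all genes, 14.6% and 8.66%), with a median log2 fold change of -0.30. Among the lower ones, *Sox8*, a relative of *Sox10*, had a log2 fold change of -1.43 (5.59 and 4.65 against 16.2 and 11.2 CPM). Against non-myelinating Schwann cells, SGCs were higher in 4 and lower in 4 (all genes, 18.1% and 15%). Ednrb-high glia were higher than these in 7 and lower in 4 (10.2% and 11.6%). Against myelinating Schwann cells, SGCs were higher in 8 and lower in 5 (all genes, 27.6% and 25.2%), and Ednrb-high glia in 7 and 4 (20% and 20.2%). The crest factor *Pax3* stood at 8.70 and 9.39 CPM in non-myelinating Schwann cells and at 0 and 0.0209 CPM (0 and 1 UMI) in SGCs. *Etv5*, an ETS factor, stood at 37.5 and 36.3 CPM in SGCs and at 3.68 and 4.66 CPM in myelinating Schwann cells. Non-myelinating exceeded myelinating Schwann cells in 9 and were lower in 3 (all genes, 19.3% and 17.9%). Among the lower ones was *Mitf* (36.1 and 33 against 172 and 166 CPM). Glia exceeded other types in 10, such as *Tfap2a* (2.69 ± 0.11), and were lower in 3 (all genes, 29.7% and 23%), the latter near the share of all genes. Among the lower ones, *Sox9*, another relative of *Sox10*, stood at 82.5 and 93.3 CPM in fibroblasts and at most 0.536 CPM in any glial type.

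Over the 18 profiles, the genes with the pattern most like that of *Sox10* were *Adamts20* (Pearson correlation 0.987), *Erbb3* (0.985) and *S100a4* (0.985). For *Sox2* they were *Sostdc1* (0.982), *Itgb8* (0.981) and *Gpm6b* (0.979), and for *Pou3f1* they were *Bcas1* (0.957), *2310014F06Rik* (0.946) and *Tspan32os* (0.945). For *Egr2* they were *Hist1h1e* (0.900), *Il16* (0.899) and *Otof* (0.898), and those given for *Zeb2* are *Armc2* (0.926) and *Rasa3* (0.898). The profiles share libraries and cell types, and these values describe likeness only.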

How the data were processed

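The authors aligned 10x 3' reads and counted UMIs with Cell Ranger 7.1.0 (per the file headers; mm10 per the labels; the annotation is not given in the sources used here), and deposited unnormalized counts for all barcodes. Identifiers were matched to GENCODE M21 (32158 of 32285 found). Cells were called as Cell Ranger does (cutoffs of 4624 and 4391 UMIs, then barcodes of at least 500 UMIs against the barcodes ranked 45000 to 90000, 10000 simulations, false discovery rate 0.01) and needed over 300 genes. SGCs under the first cutoffs resemble empty droplets in composition and may be missed. Cells were clustered in Seurat 5.3.0 (SCTransform 0.4.2, R 4.3.3, 3000 variable genes, 30 components, resolution 0.8). A cluster took the name of a class with at least 3 markers among its 50 leading genes. Ednrb-high glia needed per 10000 UMIs summed over a cluster at least 5 of *Ednrb*, under 50 of *Fabp7* and under 2 of *Ncmap* and of *Scn7a*. A further criterion and the values of some genes that the rules name are not reported here. A mitochondrial cluster and a cluster with markers of both myelinating Schwann cells and SGCs (498 cells) were removed, as were 274 cells over 46419 UMIs or 22.1% mitochondrial UMIs (5 MADs), most deep neurons among them.

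For each type, UMI counts of its cells in a sample were added up, and these profiles were compared with edgeR 4.0.16 (TMM, glmQLFit, glmQLFTest, prior count 0.125, Benjamini-Hochberg threshold 0.05) for genes that reached 10 UMIs in 2 or more of the 18 profiles. With 200 genes changed in simulated counts of SGCs, 95% of log2 changes of 1 and 100% of log2 changes of 2 were recovered against non-myelinating Schwann cells, with 7.14% of calls false (17054 genes). The simulated types were alike in all other genes, unlike the real ones. Log2 changes smaller than 1, as in several calls on the factors, were not simulated, so these rates do not cover them. DESeq2 1.42.0 was an alternative. Intervals are exact binomial at 95%, computed with scipy in Python on cells thinned to 2000 UMIs. Thinning left out 6 SGCs, 4 Ednrb-high glia, 38 non-myelinating and 60 myelinating Schwann cells, 57 fibroblasts and 33 endothelial cells. Named genes are the 6 factors, for each list and comparison at most 3 genes with the largest called change, and 3 genes per factor by correlation. The removed clusters, clusters within types, the deep neurons, and values of these genes outside the comparison that named them were described after their values were seen. The factors, lists and rules were chosen with earlier results of these data known. The rules for the removed clusters and 4 alternatives were added after the data were seen. The types of a sample were dissociated together, so the replicate number pairs profiles by origin. For 36 pairs of types, deviations from the mean of both samples correlated across genes with a median r of 0.0626 (-0.0123 to 0.258), and 9 exceeded 0.1. The labels call the samples replicates. The p-values rest on the spread between 2 samples, estimated for each gene over all 9 types in 1 fit. Each SE is the absolute log2 fold change divided by the square root of the F statistic of its test. With 2 samples per type, each SD and SE rests on few values. Each p-value and SE also takes in the spread of types outside its comparison.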

Additional observations from a re-analysis of the deposited data

How the results depend on the processing

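Of 32 calls on the factors among 42 tests, 29 held in each of 16 alternatives with a test (DESeq2, its size factors, no filter on low counts, the replicate block, subtraction of the RNA of empty droplets, doublets removed, cells gated singly, 2 other resolutions, genes of the lists used for clustering, the first calling step alone, no upper cutoffs and 4 settings chosen after seeing the data), and all 32 kept their sign without either replicate. The other 3 calls, of *Sox2*, *Sox10* and *Egr2* against non-myelinating Schwann cells, are given in the text. The pair of SGCs and Ednrb-high glia depended on where the border between them was drawn. It held 2 called factors, but 4 with cells gated singly or at a resolution of 1.2, 5 at a resolution of 0.4 or with the genes of the lists used for clustering, and, among settings chosen after seeing the data, 5 with a *Fabp7* limit of 60 and 4 without the SGC cluster next to the limit. *Egr2* turned from 0.10 to a lower level in SGCs there, with log2 fold changes of -0.58 (gated), -0.80 (resolution 0.4), -0.82 (genes of the lists used) and -0.95 (limit of 60). These settings also moved cells between the types, and the part of this in the change was not tested. With the genes of the lists used for clustering, the factors themselves could shape the clusters between which they were tested. Calls in that setting are therefore not independent of the clusters. Without a call, *Egr2* was also negative at a resolution of 1.2 (-0.29) and without the SGC cluster next to the limit (-0.36). *Sox2* in this pair, never called, lay between -0.08 and 0.05. With the replicate block, *Zeb2* (SGCs against myelinating Schwann cells, log2 -0.24, adjusted p = 0.032) and *Sox2* (Ednrb-high glia against non-myelinating Schwann cells, 0.34, adjusted p = 0.030, edgeR) were called in addition, and no other call on the factors changed. Counts of all genes called stayed within 1.5 times in every pair. Thinned to 1000 UMIs, 47 of 48 shares in glia left the interval at 2000 UMIs, and without thinning all 48 did. The profiles of SGCs held 549 and 523 UMIs of *Egr2*, and those of Ednrb-high glia 151 and 146. Depth limits neurons, whose profiles held 499314 and 542723 UMIs of all genes.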

Other observations

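Deep neurons formed a cluster of 116 cells with a median of 94728 UMIs, most of which the upper cutoff on UMIs removed. Before the cutoffs they had 12.8 and 12.2 CPM of *Sox10* and 8.51 and 11.7 CPM of *Sox2* in replicates 1 and 2, against 65.2 and 45.2 CPM and 54.8 and 30.1 CPM in the cluster of shallow neurons. They had 1.17 and 2.52 CPM of *Pou3f1*, 0.667 and 1.26 CPM of *Egr2*, 5.0 and 4.68 CPM of *Foxd3* and 261 and 229 CPM of *Zeb2*. The removed cluster with markers of both myelinating Schwann cells and SGCs, 212 cells, had 69.1 and 70.3 CPM of *Egr2* and 270 and 263 CPM of *Pou3f1*, between the levels of these types. CPM of clusters are scaled to the cluster's total without TMM.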
